A study of Mus musculus with 2 samples.

Results

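Krt5, Krt14 and Krt15 are the keratins by which the basal layer of a stratified epithelium is usually recognised. They were taken as the 3 rows of each deposited matrix that carry these symbols, out of 32285 genes and 53 genes with a Krt symbol. They were followed over cycling, differentiated, filiform and basal cells of the mouse tongue, and between 2 times of day. The study profiled single cells of tongue epithelium from male B57BL/6 mice aged 8 to 12 weeks, with 1 library collected at ZT12 and 1 at ZT0. Zeitgeber time (ZT) counts hours from lights on in the usual convention. The epithelium was digested with TrypLE and live cells were sorted as negative for the dye 7-AAD, so every group described here had passed through that digest and sort. No genetic change or drug is named in the labels. How many mice each library pools, and from which region of the tongue, are not stated in the sources used here.

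Keratins are the intermediate filament proteins of epithelia, and a filament is built from pairs of a type I and a type II chain. Krt5 encodes the type II chain of basal cells, and Krt14 encodes the type I chain it is classically paired with. Krt15 encodes a further type I chain of basal cells, known in mouse skin as a marker of hair follicle bulge cells. These filaments are anchored to the basement membrane through hemidesmosomes, and in people changes in KRT5 or KRT14 cause the blistering disease epidermolysis bullosa simplex. In oral epithelium, cells that leave the basal layer switch to other pairs, chiefly Krt4 with Krt13. The filiform papillae, the horny projections of the tongue surface, also use hair-type and stress-associated keratins.

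By Ensembl identifier in GENCODE M21 (assembly mm10), Krt5 (ENSMUSG00000061527) lies at chr15:101707070-101712898 in the type II keratin cluster and has 9 exons. Krt14 (ENSMUSG00000045545) lies at chr11:100203162-100207548 and Krt15 (ENSMUSG00000054146) at chr11:100131758-100135928, both in the type I cluster with 8 exons each. All 3 genes are on the minus strand. The libraries read the 3′ end of transcripts, so the bases near that end decide whether a read can be assigned to 1 keratin. Of the 451 words of 50 bases in the last 500 bases of each annotated transcript, none of Krt5 or Krt15 occurred in another gene's transcripts, and 43 of Krt14 did, in Krt17 or Krt16. The stretch below is shown because it holds the longest of these shared runs, 71 bases between Krt14 and Krt17. It is coding sequence of 90 bases that ends 309 bases before the end of the Krt14 transcript, and capitals mark bases that differ from Krt14 in the best ungapped match.
Krt14: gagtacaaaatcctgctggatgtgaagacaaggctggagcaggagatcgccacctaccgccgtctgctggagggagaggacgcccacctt
Krt17: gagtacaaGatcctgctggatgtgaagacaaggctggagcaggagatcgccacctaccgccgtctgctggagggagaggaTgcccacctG
Krt16: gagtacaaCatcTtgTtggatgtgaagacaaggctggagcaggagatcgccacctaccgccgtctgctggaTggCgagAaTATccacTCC
Krt15: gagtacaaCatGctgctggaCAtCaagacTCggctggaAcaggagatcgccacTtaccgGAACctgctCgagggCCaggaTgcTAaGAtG
Krt17 differed from Krt14 at 3 of these bases, Krt16 at 12 and Krt15 at 22. The sources used here do not state how reads that fit several keratins were counted, so Krt14 values beside high Krt17 or Krt16 carry that uncertainty. In the last 500 bases of their transcripts, the longest run shared by Krt14 and Krt15 was 17 bases. The last 60 coding bases of each member follow, with the stop codon in capitals.
Krt5 end: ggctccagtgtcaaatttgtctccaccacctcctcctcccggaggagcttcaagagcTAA
Krt14 end: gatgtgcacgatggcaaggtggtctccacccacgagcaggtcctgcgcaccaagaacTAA
Krt15 end: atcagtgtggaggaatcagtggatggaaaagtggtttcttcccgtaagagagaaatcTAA

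After filtering, 2620 cells of the ZT12 library and 1593 of the ZT0 library remained, with medians of 23088 and 28401 UMIs (unique molecular identifiers, counted once per captured transcript). The libraries shared 2 cell barcodes. Cells were clustered with the 3 members left out, and clusters were named "like" a cell type from marker genes that also left them out, although genes that vary with the members remained. Proliferating-like clusters held 72 cells at ZT12 and 199 at ZT0, differentiated-like clusters 741 and 414, and filiform-like clusters 158 and 94, in the same order of libraries. Basal-like clusters, with 818 and 497 cells, expressed all 10 basal markers, among them Col17a1 and Itgb4. A further 786 and 332 cells lay in clusters that stayed unnamed. Levels are given as CPM, the UMIs of a gene scaled to the UMI total of its group. Because a UMI marks one 3′ end whatever the transcript's length, levels were not divided by length. Clusters 2, 7, 8 and 11 came mostly from 1 library: basal-like cluster 2 had 365 cells at ZT12 and 8 at ZT0, and basal-like cluster 8, led by the non-coding RNA H19 and the interferon-response gene Cxcl9, had 4 and 215. Proliferating-like cluster 7 had 32 and 188 cells, and differentiated-like cluster 11, also led by interferon-response genes, had 2 and 154. Immune-like cells, which should lack these keratins, had medians of 0 to 1 UMI per cell for each member. With 1 library per time there is no replicate check and no test, and the 95% intervals cover counting error only.

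**Figure D1:**
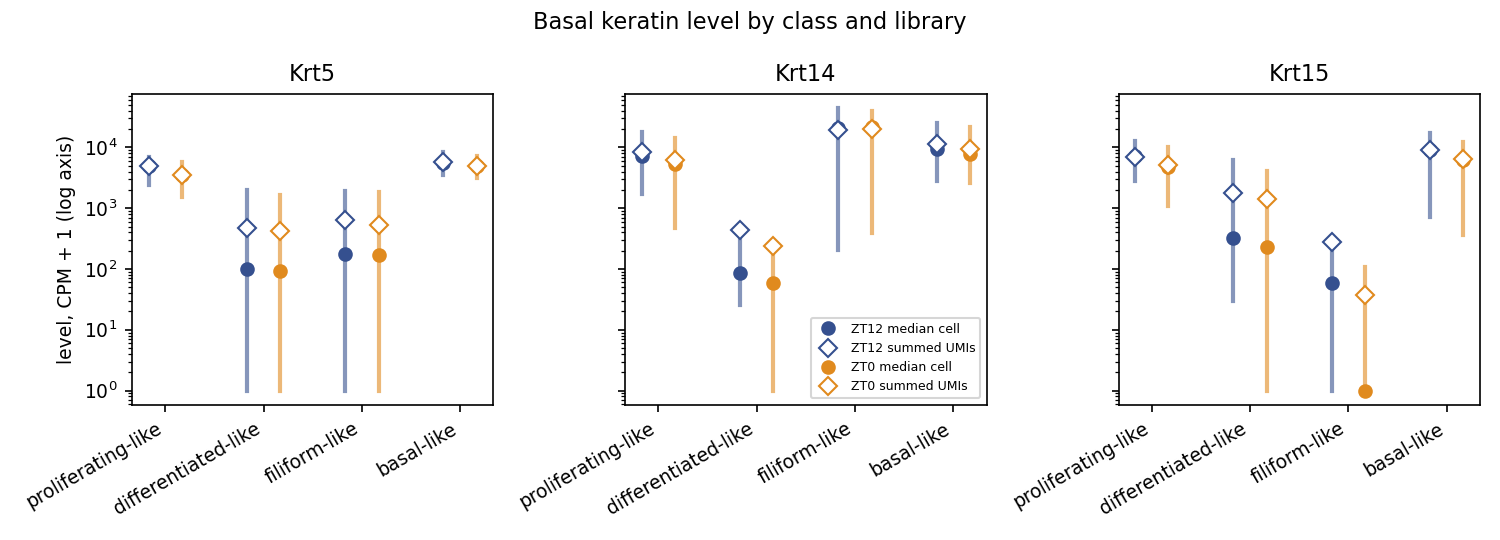
Level of each basal keratin (CPM plus 1, log axis) in 4 classes of cells, ZT12 in blue left of ZT0 in orange. Filled circles are the median cell, bars the 10th to 90th percentile of cells, and open diamonds the level from summed UMIs. All 3 are high in basal-like and proliferating-like cells, Krt14 is also high in filiform-like cells, and medians lie below summed levels in differentiated-like cells.

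Krt5, the type II chain, was high in basal-like and cycling cells and low in differentiated-like and filiform-like cells. It was not low in the unnamed clusters, whose summed cells had 2838 CPM at ZT12 and 3538 CPM at ZT0. Simple epithelial-like cells had 2172 and 1708 CPM at ZT12 and ZT0. Differentiated-like cells had 479 CPM at ZT12 and 418 CPM at ZT0, against 5730 and 4967 CPM in basal-like cells. Filiform-like cells had 630 and 537 CPM at ZT12 and ZT0. The log2 ratio over basal-like cells was -3.58 at ZT12 and -3.57 at ZT0 in differentiated-like cells (95% intervals -3.61 to -3.55 and -3.61 to -3.53), and -3.19 and -3.21 in filiform-like cells. For the filiform-like class, 5 other clusterings or cell filters gave means of the libraries between -1.82 and -1.62, so the size of that difference depends on them. The median differentiated-like cell held 4 Krt5 UMIs at ZT12 and 3.5 at ZT0, against 100 and 108 in the median basal-like cell. The differentiated-like cells held more UMIs of all genes, with medians of 35075 and 40098, against 18406 and 22792 in basal-like cells. Within the basal-like class Krt5 was the most even of the 3 members, with a coefficient of variation of CPM over cells of 0.33 at ZT12 and 0.32 at ZT0.

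Krt14, the classical partner of Krt5, parted from it in filiform-like cells. It had 432 CPM at ZT12 and 234 CPM at ZT0 in differentiated-like cells, 19504 and 19881 CPM in filiform-like cells, and 11388 and 9392 CPM in basal-like cells. The log2 ratio over basal-like cells was -4.72 and -5.33 in differentiated-like cells, and 0.78 (0.76 to 0.79) and 1.08 (1.07 to 1.10) in filiform-like cells at ZT12 and ZT0. The filiform-like level came from cluster 9, which is led by Krt10, Krt16 and Krt36 and had 24364 CPM at ZT12 (131 cells) and 25304 CPM at ZT0 (80 cells), the highest Krt14 levels of any cluster with at least 30 cells. The smaller filiform-like cluster 18, led by Krt84, Krt36 and Krt35, had 2008 CPM at ZT12 in 27 cells and 1189 CPM at ZT0 in 14. Over both libraries, Krt14 UMIs per Krt5 UMI were 36.7 in cluster 9 and 5.59 in cluster 18, against 1.31 to 3.41 in basal-like clusters. High values were not limited to filiform-like cells, with 7.94 in simple epithelial-like cluster 16 and 5.93 in unnamed cluster 10. Unnamed cluster 0 had 0.462. Cluster 9 also held Krt16 and Krt17, the keratins whose coding sequence is shared in part with Krt14, at high levels, and the part of shared reads in its Krt14 level was not tested.

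Of the 3 members, Krt15 stood closest to its basal-like level in differentiated-like cells and farthest below it in filiform-like cells. Differentiated-like cells had 1771 CPM at ZT12 and 1421 CPM at ZT0, and filiform-like cells 277 and 36.3 CPM, against 8971 and 6564 CPM in basal-like cells. The log2 ratio over basal-like cells was -2.34 and -2.21 in differentiated-like cells at ZT12 and ZT0, and -5.02 and -7.50 in filiform-like cells, where the same 5 settings gave means of the libraries between -4.78 and -3.63. The ZT0 value in filiform-like cells lay at the level of immune-like cells, which had 73.5 CPM (29.6 to 152) at ZT12 and, without their 2 highest cells, 35.7 CPM at ZT0. With those 2 cells the immune-like level at ZT0 was 1017 CPM. A UMI of Krt15 was found in 64.6% of filiform-like cells at ZT12 and 47.9% at ZT0, against 5 of 10 and 9 of 22 immune-like cells, whose median depths were 9374 and 14248 UMIs against 18614 and 22357 in filiform-like cells.

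All 3 members were past 1.5-fold lower in differentiated-like than in basal-like cells in both libraries, where 16.9% of genes of mean CPM 50 or more were. In filiform-like cells Krt5 and Krt15 were lower, where 18.3% of genes were, and Krt14 was higher, where 17.9% were. None of the 3 was past 1.5-fold lower in proliferating-like cells in both libraries, where 3.13% of genes were. Over all genes compared, the median log2 ratio over basal-like cells was -0.09 for the differentiated-like class and -0.06 for the filiform-like class.

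In differentiated-like cells the summed levels came from a minority of cells. At ZT12 the 38 cells with most Krt14, of 741, held 71.5% of its UMIs, and at ZT0 the top 21 cells of 414 held 69.6%, with 29.9% in a single cell. Without these cells Krt14 was at 130 CPM at ZT12 and 74.9 CPM at ZT0. The median cell had 85.3 and 58.5 CPM, close to the 63.0 CPM (23.1 to 137) of immune-like cells at ZT12 and to the 59.4 CPM of immune-like cells at ZT0 without their 2 highest cells. Those 2 of 22 cells held 97.6% of the immune-like Krt14 UMIs at ZT0, and with them the level was 2040 CPM. Krt15 was more widely spread: 38.1% of differentiated-like cells at ZT12 and 34.8% at ZT0 had at least 1000 CPM of Krt15, against 7.29% and 5.07% for Krt14 and 19.4% and 16.2% for Krt5. The median doublet score of the top Krt14 cells was 0.073 at ZT12 and 0.083 at ZT0, against 0.040 and 0.033 in the other differentiated-like cells, and the part of doublets in these values was not tested.

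The members' shares of all keratin UMIs of their type differed by class. Krt5 made up 1.43% of type II UMIs at ZT12 and 1.39% at ZT0 in differentiated-like cells and 2.17% and 1.79% in filiform-like cells, against 64.4% and 65.5% in basal-like cells. In differentiated-like cells Krt4 took 80.7% and 82.4% of type II, and in filiform-like cells Krt6a took 75.3% and 77.2%. Krt14 made up 0.899% and 0.559% of type I UMIs in differentiated-like cells, where Krt13 had 92.3% and 92.6%. In filiform-like cells summed together Krt14 was still the leading type I keratin, with 32.6% at ZT12 and 33.7% at ZT0, followed by Krt16 with 25.3% and 22.1%. The smaller filiform-like cluster 18 differed, with Krt36 at 67.7% and 73.5% of type I and Krt14 at 6.42% and 4.07%. Krt84 took 92.4% and 97.0% of type II in that cluster. In basal-like cells Krt14 had 44.2% and 47.1% of type I, and Krt15 34.8% and 32.9%. Krt14 and Krt15 together outnumbered Krt5 by 31.4 UMIs to 1 at ZT12 and 37.1 to 1 at ZT0 in filiform-like cells, against 3.55 and 3.21 to 1 in basal-like cells.

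**Figure D2:**
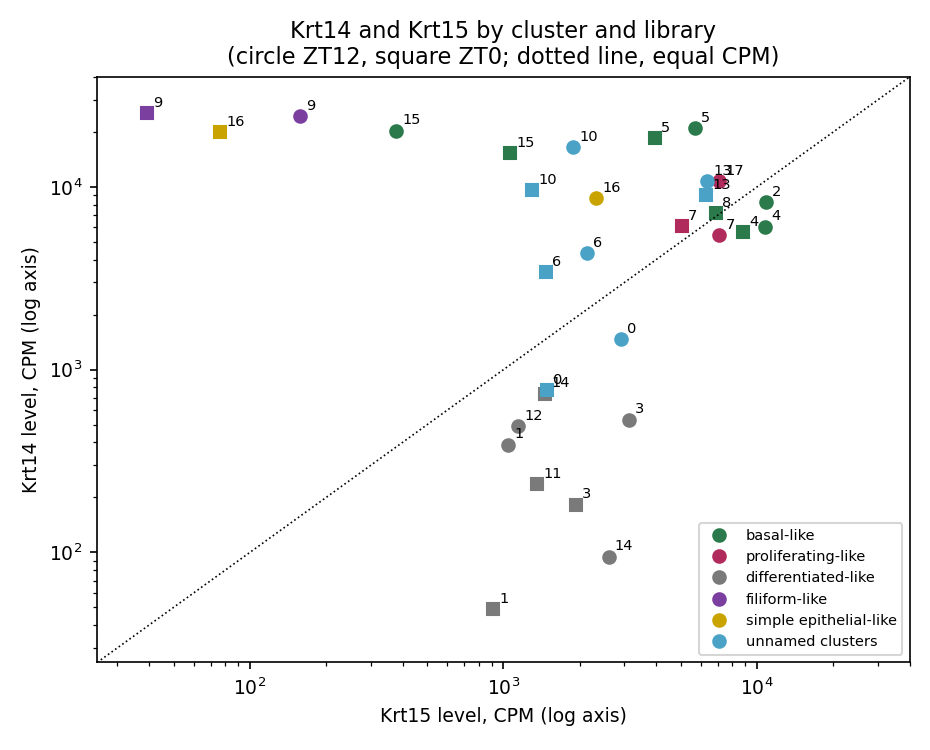
Krt14 against Krt15 level (CPM, both axes logarithmic) for each cluster with at least 30 cells in the library, circles for ZT12 and squares for ZT0, numbered by cluster and coloured by class. Cluster 9 in both libraries, cluster 16 at ZT0 and cluster 15 at ZT12 lie farthest above the line of equal levels, while basal-like clusters 2 and 4 and each point of a differentiated-like cluster lie below it.

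Basal-like cells were not alike in their type I chain. Krt14 was at 20995 CPM at ZT12 and 18567 CPM at ZT0 in cluster 5, which is led by Sostdc1, Npnt and Frem2, and at 20303 and 15261 CPM in cluster 15, led by Foxq1, Fst and Msx1. In cluster 4, led by Pappa and Nppc, it was at 6056 and 5664 CPM. Krt15 ran the other way, with 5690 and 3960 CPM in cluster 5, 377 and 1064 CPM in cluster 15, and 10714 and 8825 CPM in cluster 4. Krt14 UMIs per Krt15 UMI were thus 3.69 and 4.69 in cluster 5, 53.9 and 14.3 in cluster 15, and 0.565 and 0.642 in cluster 4. The clusters of mostly 1 library lay between, with 0.763 in cluster 2 at ZT12 and 1.04 in cluster 8 at ZT0. Krt5 differed far less among them, from 4584 CPM in cluster 4 to 6276 CPM in cluster 5 at ZT12, and from 4398 to 6121 CPM in the same clusters at ZT0. Median depths were close, at 18437, 20442 and 21688 UMIs per cell in clusters 5, 15 and 4. The Krt15 values of cluster 15 rest on few cells. There, 3 of 45 cells at ZT12 held 73.2% of the Krt15 UMIs, and 2 of 30 at ZT0 held 63.9%.

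**Figure D3:**
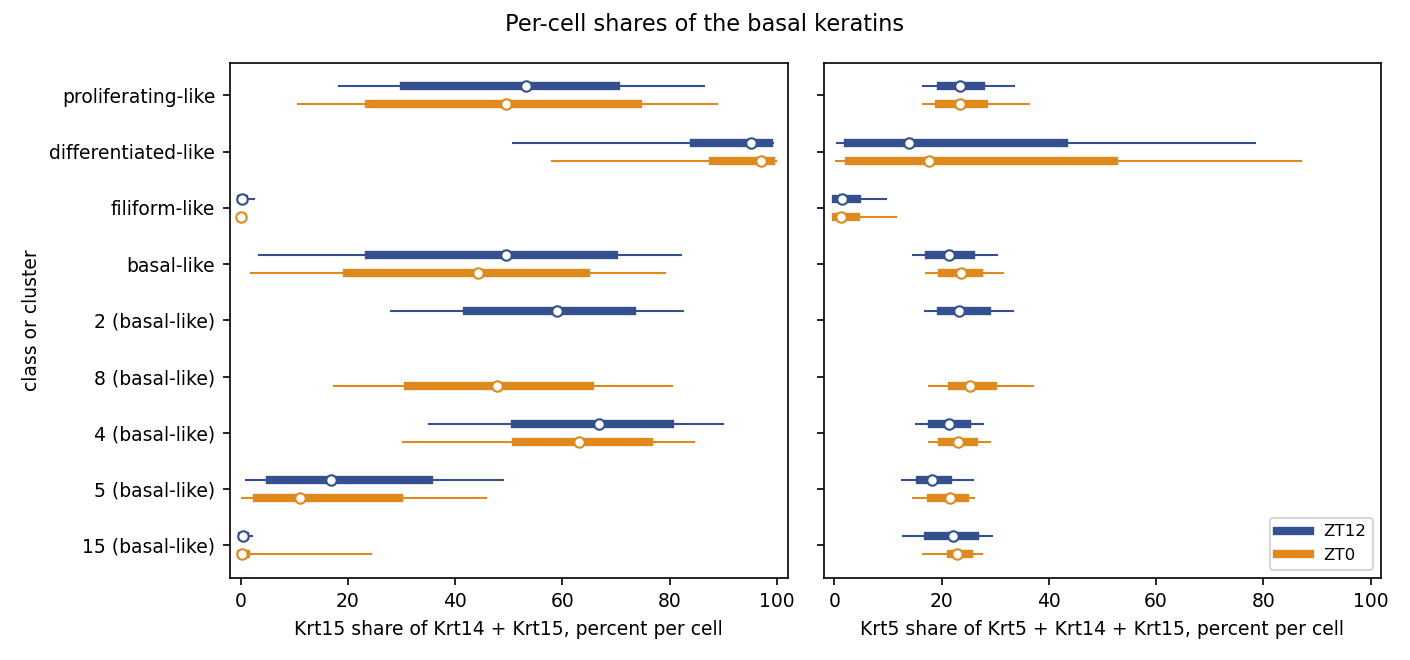
Share of Krt15 among Krt14 and Krt15 UMIs (left) and of Krt5 among UMIs of the 3 members (right) in single cells, in percent, ZT12 in blue above ZT0 in orange. Circles are medians, thick bars the middle 50% of cells and thin lines the 10th to 90th percentile, for cells with at least 20 UMIs in the denominator. The Krt15 share spans nearly the whole range within basal-like cells, while 80% of basal-like cells have a Krt5 share between 14.7% and 30.3% at ZT12.

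The same split was seen cell by cell. The median share of Krt15 among Krt14 and Krt15 UMIs in a basal-like cell was 49.5% at ZT12 (46.8 to 51.5) and 44.3% at ZT0 (41.7 to 49.1), with 10th and 90th percentiles of 3.34% and 82.0% at ZT12 and 2.01% and 79.2% at ZT0. The standard deviation over cells was 9.71 times at ZT12 and 9.42 times at ZT0 what sampling of the counted UMIs alone gives. Medians were 16.9% and 10.99% in cluster 5, 0.442% and 0.244% in cluster 15, and 66.8% and 63.2% in cluster 4. Without clusters of mostly 1 library the class medians were 36.4% at ZT12 and 38.7% at ZT0, so the order of the libraries in this share turned round. Over basal-like cells, the rank correlation of Krt14 and Krt15 CPM was -0.56 in the 818 cells at ZT12 and -0.57 in the 497 at ZT0. It was 0.36 and 0.49 for Krt5 and Krt14, and 0.03 and -0.11 for Krt5 and Krt15. The 2 levels of each pair share a cell, its depth and its UMI total, and Krt14 itself had a rank correlation of -0.21 and -0.29 with the cell's UMI total.

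Outside the basal-like class the share was high in differentiated-like and near 0 in filiform-like cells. It was 95.2% at ZT12 and 97.1% at ZT0 in the median differentiated-like cell, 0.228% and 0% in the median filiform-like cell, and 53.3% and 49.5% in the median proliferating-like cell. Only 358 of 741 and 191 of 414 differentiated-like cells had the 20 UMIs required, so their values describe the cells that still carried these transcripts. Of the UMIs of the 3 members, Krt5 made up 23.4% at both times in the median proliferating-like cell, 14.0% at ZT12 and 17.6% at ZT0 in the median differentiated-like cell and 1.44% and 1.31% in the median filiform-like cell, against 21.5% and 23.6% in the median basal-like cell. Other clusterings and cell filters gave filiform-like values of up to 5.65% at ZT12 and 5.27% at ZT0. In the median unnamed cell the Krt5 share was higher, at 30.9% at ZT12 and 34.2% at ZT0. Medians were 43.3% and 76.2% in unnamed cluster 0, but 13.3% and 13.1% in cluster 10 and 21.5% and 23.4% in cluster 13. Of the summed UMIs of cluster 0, Krt5 made up 40.03% at ZT12 and 54.34% at ZT0. There it outnumbered Krt14 and Krt15 together at ZT0 and not at ZT12.

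**Figure D4:**
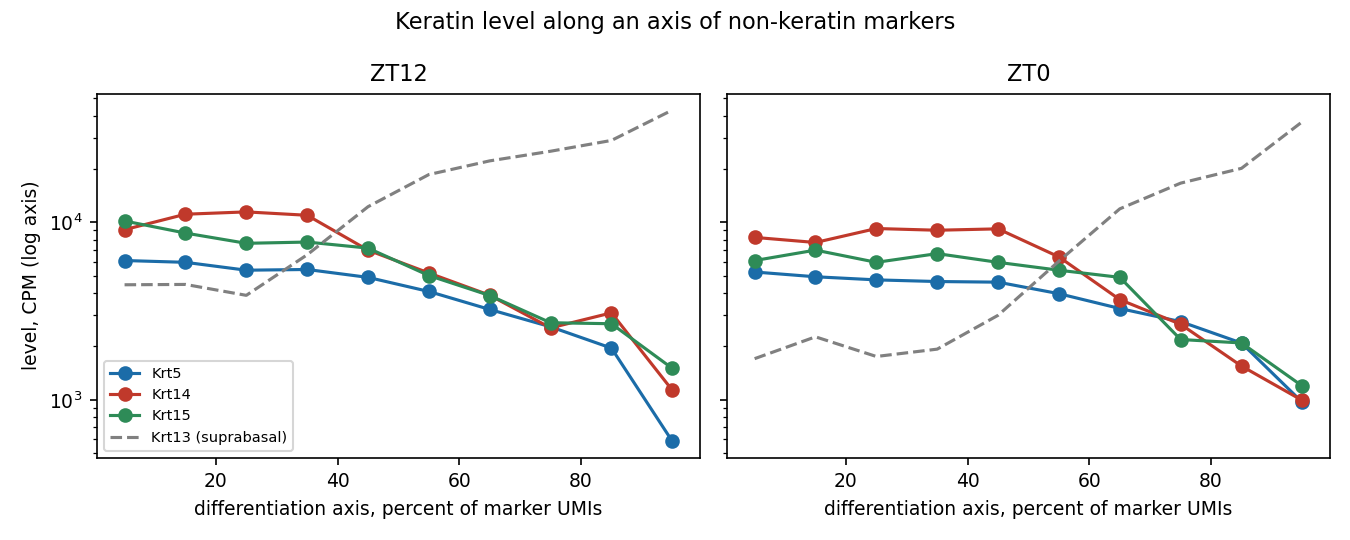
Level (CPM, log axis) of the basal keratins and of Krt13 in 10 bins of cells along an axis of non-keratin differentiation markers, each point 1 bin, with ZT12 on the left and ZT0 on the right. All 3 basal keratins are lower and Krt13 is higher in the last bin than in the first. At ZT12, Krt15 is lower from the second bin on, and Krt14 is at 10964 CPM in the fourth bin and 6975 CPM in the fifth.

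The members were also read along a gradient of marker UMIs, in which clusters served only to choose the cells that entered. Cells other than filiform-like, simple epithelial-like and immune-like ones were placed by the share of differentiated marker UMIs among basal plus differentiated marker UMIs, with no keratin in either list, and cut into 10 equal steps. Krt5 was highest in the first bin and lowest in the last, at 6095 and 584 CPM at ZT12 and at 5251 and 967 CPM at ZT0, a ratio of 10.4 and 5.43. It first fell below 50% of its first level in bin 8 at ZT12 and bin 9 at ZT0. The other members did so earlier, Krt14 in bin 7 at both times and Krt15 in bin 6 at ZT12 and bin 8 at ZT0. Krt14 was highest in the third bin, at 11455 CPM at ZT12 and 9233 CPM at ZT0, and reached 1132 and 991 CPM in the last. That low last level depends on which clusters were left out. Filiform-like cells, placed on the same axis, had 20063 CPM at ZT12 and 19555 CPM at ZT0 in the last bin. Krt15 was highest in the first bin at ZT12 (10183 CPM) and in the second at ZT0 (6977 CPM), and reached 1503 and 1195 CPM in the last. Krt13, given for orientation, went the other way, with 4449 CPM in the first and 42950 CPM in the last bin at ZT12, and 1705 and 36948 CPM at ZT0. The bins differ in depth, with medians of 17025 UMIs in the first and 35194 in the last bin at ZT12, and the first bin at ZT0 held 27 cells.

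Cycling cells kept all 3 members. Proliferating-like cells had 4869 CPM of Krt5 at ZT12 and 3473 at ZT0, 8360 and 6163 CPM of Krt14, and 7078 and 5135 CPM of Krt15. The log2 ratio over basal-like cells was -0.24 at ZT12 and -0.52 at ZT0 for Krt5, -0.45 and -0.61 for Krt14, and -0.34 and -0.35 for Krt15. Without cluster 7 and the other clusters of mostly 1 library, the mean of the libraries became 0.01 for Krt5 and 0.0002 for Krt15, which leaves 40 cells at ZT12 and 11 at ZT0 in the class. Grouped instead by S and G2/M gene lists over basal-like and proliferating-like cells, Krt5 was at 4325 CPM at ZT12 and 3431 CPM at ZT0 in G2/M-high cells, 5761 and 4574 CPM in S-high cells, and 5661 and 5002 CPM in the rest. Krt14 was at 7063 and 6212 CPM in G2/M-high cells and 10444 and 6815 CPM in S-high cells, against 11783 and 9722 CPM in the rest. Krt15 was at 7887 and 5062 CPM in G2/M-high cells and 8054 and 6211 CPM in S-high cells, against 9308 and 6615 CPM in the rest. Each member was thus lower in G2/M-high cells than in the rest at both times, and in S-high cells Krt5 at ZT12 was the exception to a lower level. The G2/M-high cells numbered 30 at ZT12 and 181 at ZT0, with median depths of 25386 and 38859 UMIs against 17345 and 22294 in the rest. S-high cells numbered 295 at ZT12 and 73 at ZT0, of which 258 and 58 lay in basal-like clusters.

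**Figure D5:**
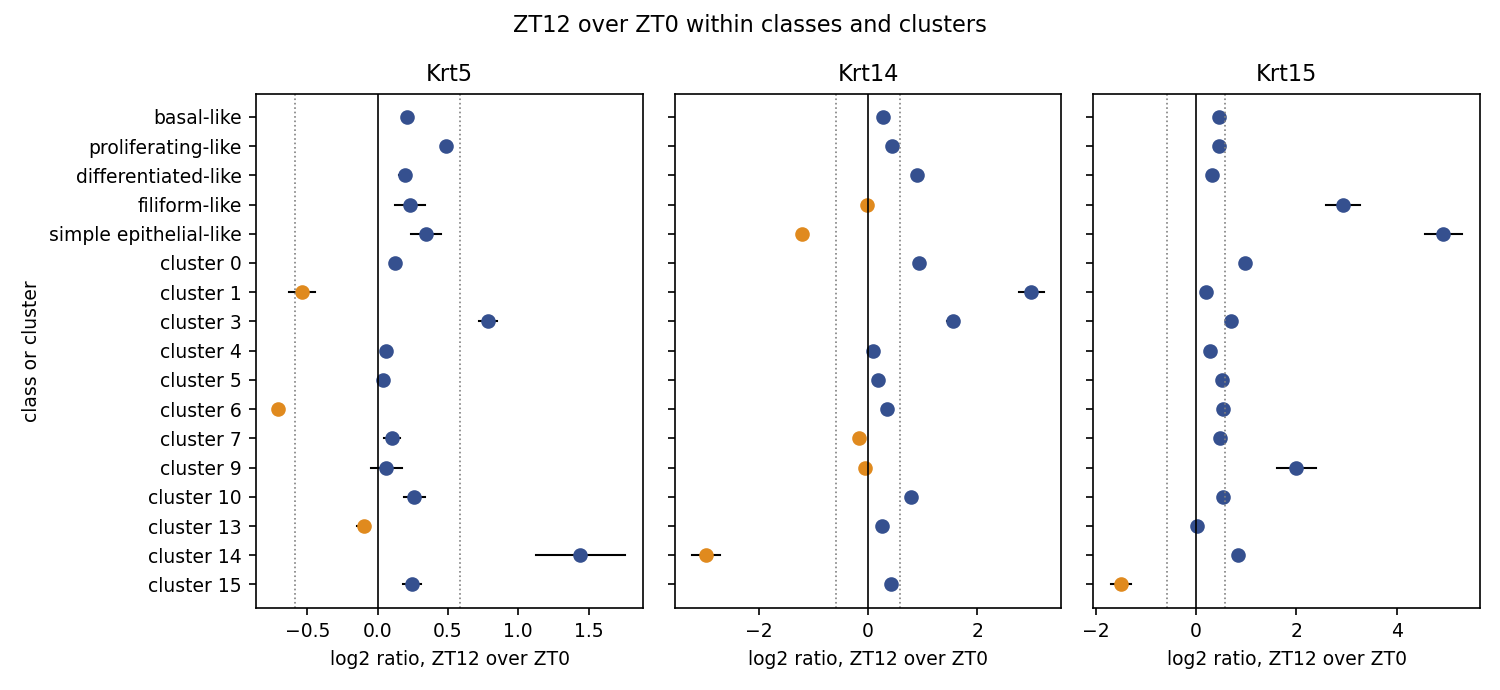
Log2 ratio of ZT12 over ZT0 for each member within classes and clusters with at least 30 cells in both libraries, blue where higher at ZT12 and orange where lower. Bars are 95% counting intervals and dotted lines mark 1.5-fold. Krt15 lies right of 0 in nearly all groups, while Krt5 and Krt14 lie within 1.5-fold in most and on both sides of 0.

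Between the times of day, the members differed little over all cells. Krt5 had 2510 CPM at ZT12 and 2602 CPM at ZT0, Krt14 5224 and 5328 CPM, and Krt15 3800 and 3265 CPM. The ratio of ZT12 over ZT0 was 0.964 (0.957 to 0.971) for Krt5, 0.981 (0.976 to 0.986) for Krt14 and 1.16 (1.16 to 1.17) for Krt15. None of the 3 reached 1.5-fold, where 3% of genes did in either direction. The signs for Krt5 and Krt14 turned with TMM scaling and with the class makeup weighted alike, and that for Krt15 did not.

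Within basal-like cells all 3 were higher at ZT12. The ratio was 1.15 for Krt5 (1.14 to 1.17), 1.21 for Krt14 (1.20 to 1.22) and 1.37 for Krt15 (1.35 to 1.38), and none was past 1.5-fold, where 3.4% of genes were. The median log2 ratio over all genes in that class was 0.01, and over 11 genes of hemidesmosome and basement membrane adhesion it was 0.24. Of the 818 basal-like cells at ZT12, 365 lay in cluster 2, and of the 497 at ZT0, 215 lay in cluster 8. Each of these clusters came mostly from 1 library. Over other settings the class log2 ratio ranged from 0.11 to 0.24 for Krt5, 0.06 to 0.32 for Krt14 and 0.27 to 0.51 for Krt15. The basal-like clusters with at least 30 cells in both libraries gave ratios for Krt5 of 1.04 in cluster 4, 1.03 in cluster 5 and 1.18 in cluster 15. In the same order they gave 1.07, 1.13 and 1.33 for Krt14. For Krt15 they gave 1.21, 1.44 and 0.354 in clusters 4, 5 and 15. The value of cluster 15 rests on few cells, as 3 of 45 at ZT12 held 73.2% of the Krt15 UMIs and 2 of 30 at ZT0 held 63.9%. In proliferating-like cells the ratios were 1.40, 1.36 and 1.38 for Krt5, Krt14 and Krt15, again none past 1.5-fold, where 12.2% of genes were. Most of these cells lay in cluster 17 at ZT12 (40 of 72) and in cluster 7 at ZT0 (188 of 199). The genes leading cluster 17 include Uhrf1, Rrm2 and Mcm3, of DNA replication, and those leading cluster 7 include Ube2c, Nusap1 and Cenpf, of mitosis. Over both libraries, cluster 17 had 5570, 9759 and 6986 CPM of Krt5, Krt14 and Krt15, and cluster 7 had 3436, 6055 and 5265 CPM. The part of this makeup in the class ratios was not tested. Within cluster 7 the ratios were 1.07 (1.03 to 1.12) for Krt5, 0.893 (0.866 to 0.921) for Krt14 and 1.40 (1.36 to 1.44) for Krt15. Over other settings the log2 ratio in the class ranged from 0.32 to 0.63 for Krt5, from 0.36 to 0.84 for Krt14 and from 0.07 to 0.60 for Krt15, so that each member passed 1.5-fold in some of them, and Krt15 was lowest without clusters of mostly 1 library.

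In differentiated-like and filiform-like cells 2 values were past 1.5-fold, and in both a few cells held most of the UMIs. Krt14 in differentiated-like cells had a ratio of 1.85 (1.78 to 1.92), where 0.535% of genes were past 1.5-fold higher. Its levels without the top 5% of cells, 130 CPM at ZT12 and 74.9 CPM at ZT0, also differed by more than 1.5-fold, near the immune-like level. Krt15 in filiform-like cells had a ratio of 7.62 (6.06 to 9.69), where 0.805% of genes were past 1.5-fold higher. There, 8 of the 158 ZT12 cells held 77.3% of its UMIs, and a single cell 26.2%. Without the top 5% of cells Krt15 was at 68.8 CPM at ZT12 and 29.4 CPM at ZT0, also more than 1.5-fold apart. The suprabasal keratin Krt76, which leads cluster 6 and not the filiform-like clusters, moved with it in these cells, at 130 CPM at ZT12 and 4.04 CPM at ZT0. Markers of other cells moved too: the 4 taste cell markers summed to 0.97 CPM at ZT12 and 59.2 CPM at ZT0, with Gnat3 at 0 and 47.1 CPM, and the 7 simple epithelial markers to 27.8 and 81.7 CPM, with Krt8 at 0 and 23.3 CPM. The part of these cells in the Krt15 ratio was not tested. The Krt15 ratio was at or just under 1 in 3 other clusterings or cell filters, with log2 values of -0.11, -0.0006 and -0.004, so it depends on the clustering and the cell filter.

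Cluster by cluster, Krt15 was higher at ZT12 in 11 of 13 clusters with at least 30 cells in both libraries, lower in 1, and in 1 its interval held 1. The median of the 13 log2 ratios was 0.53. Krt5 was higher in 9 and lower in 3, with a median of 0.10, and Krt14 higher in 9 and lower in 4, with a median of 0.26. Among the unnamed clusters, Krt15 had 2912 CPM at ZT12 and 1478 CPM at ZT0 in cluster 0, led by Lgi2 and Dlk1, and 2130 and 1466 CPM in cluster 6, led by Krt76, Tchh and Flg. The clusters of a library share its handling, so their agreement does not replace replicates.

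The order of levels over clusters differed for each member. For Krt5, cluster 5 came first in both libraries, at 6276 CPM at ZT12 and 6121 CPM at ZT0, and the interval of the ZT0 value (6018 to 6226) overlapped that of cluster 2 at ZT12 (6118 CPM, 6059 to 6177). Differentiated-like cluster 14 came last, at 187 and 68.8 CPM. Krt14 was highest in filiform-like cluster 9 and next in basal-like clusters 5 and 15 at ZT12, with simple epithelial-like cluster 16 at ZT0 among them. It was lowest in differentiated-like cluster 1 at ZT0, at 49.1 CPM in 83 cells, where no cell reached 1000 CPM. Clusters 10 and 13 lay between for Krt14, with 16529 and 9581 CPM in cluster 10, led by Krt42, Krt75 and Krt17, and 10769 and 8981 CPM in cluster 13, led by Dcn and Lgr6. For Krt15, basal-like clusters 2 (10797 CPM) and 4 (10714 CPM) at ZT12 came first, with overlapping intervals. Filiform-like cluster 9 at ZT0 came last, at 39.4 CPM, and basal-like cluster 15 at ZT12 ranked 28 of 31.

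The genes whose levels ran most like each member over 31 groups, each a cluster in 1 library, were sought among 2862 genes of mean CPM 50 or more, by Pearson correlation of log2 CPM. For Krt5 they were Klf9 (r = 0.94), Lamb3 (0.92), Moxd1 (0.92), Smad4 (0.91) and Cavin3 (0.91). Lamb3 encodes a laminin chain of the basement membrane, and Col17a1, the hemidesmosomal collagen, had r = 0.90. For Krt14 they were Zfp703 (0.90), Krt17 (0.88), Btg1 (0.87), Smad7 (0.86) and Kmt2e (0.83), and Krt4 ran most opposite (-0.92). Krt17 shares sequence with Krt14, as printed above. For Krt15 they were Rps4x (0.89), Rps3 (0.87), Rpl4 (0.87), Cotl1 (0.87) and Bcl11a (0.87), the first 3 of which encode ribosomal proteins. Between members, r was 0.70 for Krt5 and Krt14, 0.43 for Krt5 and Krt15 and -0.07 for Krt14 and Krt15. The groups of a library share its depth and handling, so these values describe the 31 groups and carry no p.

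Genes that act with the basal keratins were read from lists chosen for their roles. All 11 measured genes of hemidesmosome and basement membrane adhesion were past 1.5-fold lower in both libraries in differentiated-like than in basal-like cells, where 16.9% of all genes were, with a median log2 ratio of -3.66. In filiform-like cells, where 18.3% of all genes were lower, all 11 were, with a median of -3.48. As means of the libraries, Col17a1 averaged 46.2 CPM in differentiated-like cells, 45.7 CPM in filiform-like cells and 1147 CPM in basal-like cells. In proliferating-like cells 7 of the 11 were lower, where 3.13% of all genes were, among them Lama3 (25.3 CPM against 69.0 CPM) and Itga6 (240 CPM against 553 CPM), an integrin subunit of the hemidesmosome. Several of these genes were also basal markers used to name the classes, so their difference is in part set by the naming.

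The keratins that replace the members differed by class. Of 8 suprabasal keratins above 20 CPM, 7 were past 1.5-fold higher in differentiated-like than in basal-like cells, where 13.1% of genes were, led by Krt4 (25974 CPM against 404 CPM), a marker used in the naming. All 4 stress keratins above 20 CPM were higher in filiform-like cells, where 17.9% of all genes were. Krt6a was at 22530 CPM against 2359 CPM in basal-like cells, and Krt16 at 14096 CPM against 73.0 CPM. In filiform-like cluster 18 Krt6a and Krt16 were at 147 and 723 CPM over the cells of both libraries. Of 15 regulators of keratin genes, 2 were higher and 3 lower in differentiated-like cells, shares near the 13.1% and 16.9% of all genes. Trp63, the basal transcription factor p63, averaged 133 CPM in differentiated-like cells, 184 CPM in filiform-like cells and 550 CPM in basal-like cells. Of 9 linkers of keratin filaments above 20 CPM, 5 were higher and 2 lower in differentiated-like cells, again beside 13.1% and 16.9% of all genes. Dst, whose epithelial form ties Krt5 and Krt14 filaments to hemidesmosomes, was at 105 CPM in differentiated-like cells, against 1350 CPM in basal-like cells. Between the times in basal-like cells, 1 of the 11 adhesion genes was past 1.5-fold higher at ZT12, where 1.65% of genes were, and none was lower. The 1 gene was Dst, with 1784 CPM at ZT12 and 915 CPM at ZT0. The median log2 ratio of the 11 was 0.24, beside 0.21, 0.28 and 0.45 for Krt5, Krt14 and Krt15 in the same cells.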

How the data were processed

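The deposited values were raw UMI counts per gene and cell barcode in 1 matrix per library, not normalized. The build was mm10 and the tool Cell Ranger 2.1.1, per the submitters' processing notes, whereas the matrices came from Cell Ranger 4.0.0, per the file headers. The labels name a 3′ v2 kit for both libraries. Of 778 beginnings of 6 bases among the ZT0 barcodes, 737 also occurred among the 908 of ZT12, but the kit was not checked against a barcode list, and a difference in handling cannot be told apart from time. The counting of reads that fit several genes is not stated. Barcodes under 500 genes or at 10% or more mitochondrial UMIs were left out (191 at ZT12, 129 at ZT0). Scrublet called 8 and 4 doublets, so doublets were in effect not removed, and free RNA was not corrected. Cells were clustered with scanpy 1.11.5 and leidenalg 0.10.2 (2000 variable genes, 30 components, 15 neighbours, resolution 1.0) without the 3 members. The rule that names clusters from markers was set after the clusters were seen. The members and gene lists were chosen with earlier results of these data known.

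UMIs were summed per class and library and scaled to CPM. Ratios carry exact conditional binomial 95% intervals, levels exact Poisson ones and medians order-statistic ones, for counting error only. A gene of mean CPM 50 or more was called past 1.5-fold. Per-cell shares needed 20 UMIs. List members named are the up to 4 with the largest ratio at 20 CPM or more. Computations were tested on simulated counts. Alternatives, including edgeR 4.0.16 TMM factors, are given in the closing section.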

Additional observations from a re-analysis of the deposited data

Results flagged for a closer look

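In 4 groups a member moved between the times in the direction opposite to the basal-like class, past 1.5-fold and with a counting interval that leaves out 1. The difference from basal-like cells was not tested, as there is 1 library per time. Krt14 had a log2 ratio of ZT12 over ZT0 of -1.21 in simple epithelial-like cells, with 8662 CPM in 35 cells at ZT12 and 19997 CPM in 35 cells at ZT0, and Krt15 went the other way there, with 2324 and 76.5 CPM. In the same cells the 4 taste cell markers summed to 0 CPM at ZT12 and 117 CPM at ZT0 (Plcb2 at 0 and 62.6 CPM), the 7 simple epithelial markers to 9901 and 5958 CPM (Wfdc18 at 3621 and 1206 CPM), and the differentiated marker Cnfn was at 40.3 and 593 CPM, and the part of these differences in the keratin values was not tested. Krt14 had -2.96 in differentiated-like cluster 14, with 94.9 CPM at ZT12 and 738 CPM at ZT0. There a single ZT0 cell held 92.5% of the UMIs, and without the top 5% of cells the values were 88.6 CPM at ZT12 and 55.3 CPM at ZT0. Krt15 had -1.50 in basal-like cluster 15, with 377 CPM at ZT12 and 1064 CPM at ZT0. The highest cell held 35.4% of its UMIs at ZT12 and 43.3% at ZT0. Krt5 had -0.70 in unnamed cluster 6, with 2339 CPM in 184 cells at ZT12 and 3811 CPM in 108 cells at ZT0, and 57.6% of cells at ZT12 and 73.1% at ZT0 reached 1000 CPM.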

How the results depend on the processing

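Log2 ratios over basal-like cells, averaged over the libraries, were -0.38, -0.53 and -0.35 for Krt5, Krt14 and Krt15 in proliferating-like cells, -3.58, -5.02 and -2.27 in differentiated-like cells, and -3.20, 0.93 and -6.26 in filiform-like cells, and alternatives are given in the same gene order. Requiring 1000 genes and less than 5% mitochondrial UMIs they were -0.33, -0.39 and -0.37 in proliferating-like cells, -3.74, -5.06 and -2.33 in differentiated-like cells and -1.71, 0.92 and -4.78 in filiform-like cells. Leaving out the top 5% of doublet scores they were -0.30, -0.39 and -0.39 in proliferating-like cells, -3.78, -5.24 and -2.38 in differentiated-like cells and -1.74, 0.84 and -4.25 in filiform-like cells. With the members among the clustering genes they were -3.50, -4.92 and -2.34 in differentiated-like cells and -1.82, 0.87 and -4.74 in filiform-like cells. With no keratin among the clustering genes they were -0.32, -0.35 and -0.37 in proliferating-like cells, -3.84, -5.08 and -2.35 in differentiated-like cells and -1.80, 0.87 and -4.71 in filiform-like cells. At resolution 0.5 they were -0.34, -0.52 and -0.39 in proliferating-like cells, -3.65, -4.99 and -2.29 in differentiated-like cells and -1.62, 0.71 and -3.63 in filiform-like cells. At resolution 1.5 they were -0.27, -0.30 and -0.34 in proliferating-like cells, -3.83, -5.07 and -2.32 in differentiated-like cells and -2.90, 0.95 and -6.16 in filiform-like cells. With UMIs outside keratin genes as the denominator they were -3.51, -4.95 and -2.20 in differentiated-like cells and -3.11, 1.02 and -6.17 in filiform-like cells. From the median cell they were -0.32, -0.49 and -0.37 in proliferating-like cells, -5.77, -6.92 and -4.80 in differentiated-like cells and -4.92, 1.31 and -9.95 in filiform-like cells. Without clusters of mostly 1 library they were 0.013, -0.52 and 0.00024 in proliferating-like cells, -3.57, -5.29 and -2.11 in differentiated-like cells and -3.17, 0.67 and -6.10 in filiform-like cells. Differentiated-like and filiform-like cells thus kept their direction for each member in each of these settings, while proliferating-like values for Krt5 and Krt15 reached 0 without clusters of mostly 1 library. For ZT12 over ZT0 in all cells the log2 ratios were -0.05, -0.03 and 0.22. Requiring 1000 genes and less than 5% mitochondrial UMIs, the values became -0.072, -0.041 and 0.17. Leaving out the top 5% of doublet scores, the values became -0.063, -0.044 and 0.22. With UMIs outside keratin genes as the denominator, the values became -0.033, -0.0094 and 0.24. From the median cell, the values became -0.084, -0.58 and 0.19. Without clusters of mostly 1 library, the values became -0.25, -0.26 and 0.16. With TMM factors, the values became 0.018, 0.042 and 0.29. With the class makeup weighted alike, the values became 0.081, 0.13 and 0.42. The Krt5 and Krt14 signs turned under the last 2 of these. The median Krt15 share in basal-like cells (49.5% at ZT12, 44.3% at ZT0) became 36.4% and 38.7% without clusters of mostly 1 library and stayed within its interval in the other settings. In filiform-like cells the Krt15 log2 ratio of ZT12 over ZT0 (2.93) was -0.11 with the stricter cell filter, -0.00063 with the members among the clustering genes and -0.0043 with no keratin among them, and that of Krt14 (-0.03) ranged from -0.05 to 0.21. The cause of these shifts was not tested. Leaving out cells under 5000 UMIs, chosen after seeing the data, moved no value by more than its interval. With a minimum mean CPM of 10 in place of 50, 367 in place of 85 genes were past 1.5-fold between the times in all cells, and 33 with a fold of 2. No paired analysis was possible because there is 1 library per time and no test. Few UMIs of the gene limit Krt14 in differentiated-like and Krt15 in filiform-like cells, where the median cell held 0 to 3 of them.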
